A study of Homo sapiens with 6 samples.

Results

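The components that carry a signal from receptor adaptors through RAS to the ERK kinase and its substrate kinases were followed in HL-60 cells with reduced EZH2. They were 34 genes chosen by symbol, of 58884 genes in the deposited table, and all 34 had a row there. Of these, 30 passed the filter on low counts and were tested. HL-60 is a human promyelocytic leukemia line that the labels describe as RAS-mutated. Both groups carried a lentiviral shRNA vector and had been selected as stable cells with puromycin, which was washed out before the experiment. One group expressed an shRNA against EZH2, the catalytic subunit of Polycomb repressive complex PRC2 (3 libraries, numbered 1, 3 and 4), and the other a scrambled control shRNA (3 libraries, numbered 3, 4 and 5). All cells spent 24 hours in 0.05% serum before polyadenylated RNA was taken, so the comparison describes cells with little growth factor supply. The series text speaks of 3 lines per group, but whether these were separate transductions is not stated, and the p-values therefore reflect variation among 6 libraries that could be technical replicates.

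RAS proteins are small GTPases that are active when bound to GTP. Adaptors bound to activated receptors recruit exchange factors, which load RAS with GTP, and GTPase-activating proteins (GAPs) switch it off again. Active RAS engages RAF kinases, RAF phosphorylates MEK, MEK phosphorylates ERK, and ERK activates RSK kinases and transcription factors, while scaffold proteins hold the kinases together. In myeloid leukemia this route is often activated by mutation. These data hold mRNA levels and say nothing of GTP loading or phosphorylation.

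The change was uneven along the pathway. The adaptor GAB2 and the ERK substrate kinase RPS6KA1 fell furthest among the well expressed members, to 50.6% and 60.1% of their control levels, and the exchange factors SOS1 and SOS2 fell with them. RASGRP2, the most abundant exchange factor mRNA, rose to 141% of control. Among the RAS, RAF, MEK and ERK genes the changes were mixed and mostly small. NRAS, ARAF, BRAF and MAP2K1 had log2 fold changes between -0.07 and 0.04 and did not pass the test. MAPK3 (-0.29) and, narrowly, HRAS (-0.20) were called lower and MAP2K2 (0.13) higher, while the scarce RRAS (0.59) did not pass. Of the 30 tested members 6 rose, 14 fell and 10 did not pass an adjusted p of 0.05 (edgeR quasi-likelihood test, Benjamini-Hochberg over 16859 genes). Over all genes tested 46.7% were called, 23.8% higher and 22.9% lower. The groups did not overlap for 19 of the 30 members, against 54.9% of all genes; 6 of them were higher and 13 lower, against 27.9% and 27% of all genes. The median log2 fold change (EZH2 shRNA over control) was -0.08 over the tested members and 0.01 over all genes tested. Most of the called changes were small: 16 of 20 were under 0.5 on the log2 scale, with a median size of 0.31, against 0.38 for all called genes.

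**Figure D1:**
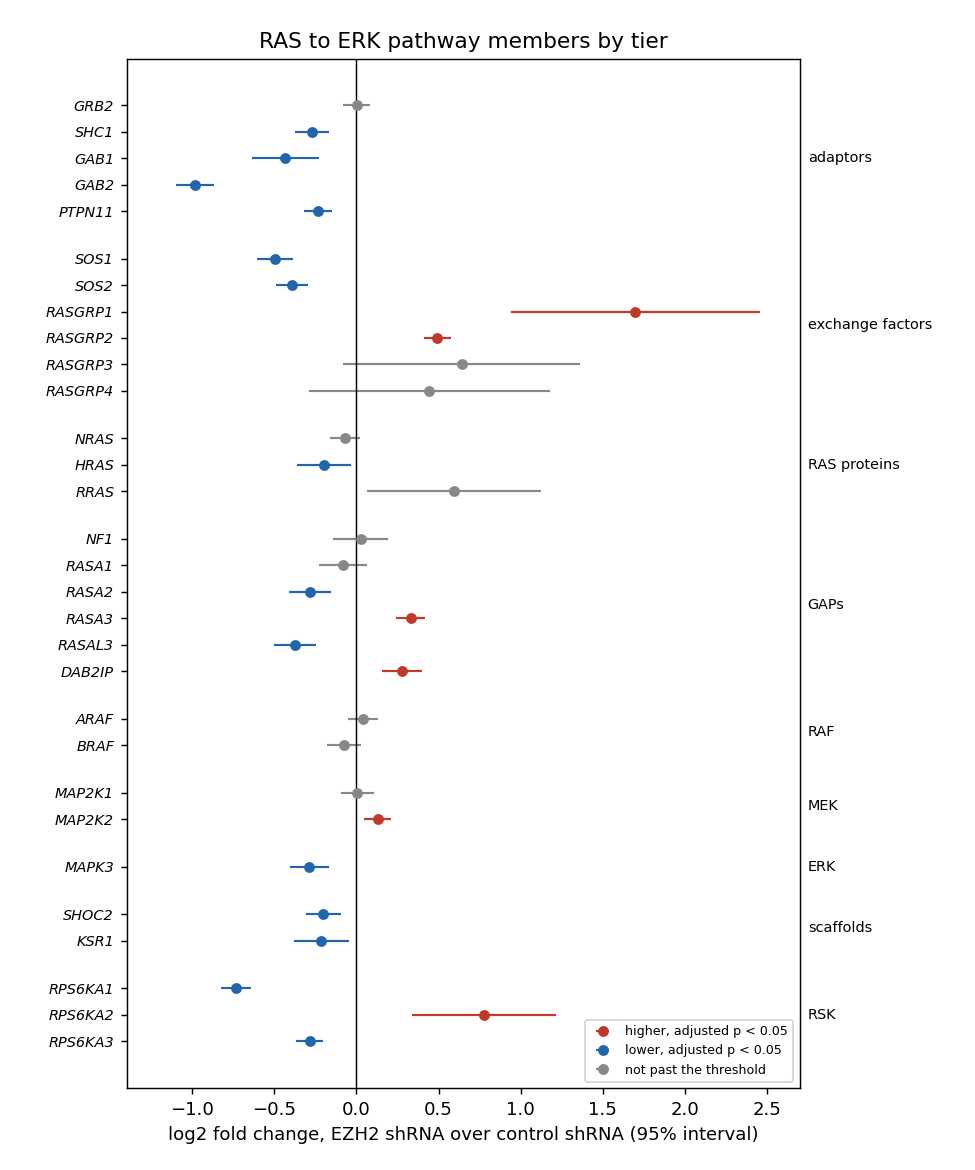
Log2 fold change (horizontal axis, EZH2 shRNA over control shRNA) of the 30 tested members, grouped by pathway tier from adaptors at the top to RSK kinases at the bottom. Points are fitted values, bars 95% intervals, red marks higher, blue lower, and grey not past an adjusted p of 0.05. Adaptors other than GRB2, SOS factors, MAPK3, scaffolds and the abundant RSK kinases lie left of 0, RASGRP1 and RASGRP2 right of it, and the intervals of ARAF, BRAF and MAP2K1 span it.

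Total counts lay between 39717343 and 85074624 per library. EZH2 itself was at 149.5 ± 1.61 CPM (counts per total count, with TMM scaling) in the control and 79.98 ± 3.01 CPM under the EZH2 shRNA (mean ± SD of 3 libraries), or 53.5% of control, a partial loss. HL-60 identity was checked on 7 genes of promyelocytes, summed to between 10162 and 10973 CPM in the controls and between 10287 and 10656 CPM in the EZH2 shRNA libraries. MPO, the main granule peroxidase, accounted for most of this, while the elastase gene ELANE was near the detection floor. Of the 6 tested genes 3 were higher and 1 lower: PRTN3 went from 21.8 to 96.5 CPM, AZU1 from 37.8 to 60.8 CPM, MYB from 489.2 to 564.7 CPM and CTSG from 174.5 to 149.5 CPM. Markers of erythroid and epithelial cells were at or near 0 (6 of 7 at 0 in every library). The monocyte list of 4 genes, most of it LYZ, went from between 45.3 and 47.1 CPM to between 31.20 and 33.99 CPM, and CD14 was near 0. CSF1R of the same list went the other way, from 0.105 to 0.870 CPM (3.02, adjusted p = 1.14e-05). Of 5 T cell genes TRAC was higher and CD3G was at 0, with sums between 18.2 and 18.3 CPM against 32.2 to 36.1 CPM. Of 4 B cell genes PAX5 was higher and MS4A1 was at 0, with sums between 16.6 and 18.7 CPM against 35.6 to 38.7 CPM. The 5 late neutrophil genes summed to between 25.9 and 30.7 CPM against 27.3 to 31.3 CPM, nearly all from CSF3R, and the 3 fibroblast genes stayed under 1 CPM. All 6 genes of an eosinophil list were higher, and their summed level went from between 136.0 and 137.8 CPM to between 328.0 and 349.8 CPM. The part of these marker changes in the results below was not tested. In bulk RNA, fewer cells of a type and less RNA per cell cannot be told apart.

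The level of change differed between chromosomes. The median log2 fold change was -0.29 on chromosome 2 (722 genes) and -0.27 on chromosome 11 (595 genes), against 0.20 on chromosome 13 (218 genes) and 0.15 on chromosome 17 (642 genes). Each member is therefore given with its chromosome and, where it matters, beside the median of about 40 neighbouring expressed genes. Where a median was removed it was treated as a known value, so such p-values carry neither its error nor the spread among neighbours.

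The starts of 29 of the 34 members were found in RefSeq (GRCh38.p14), and the 250 bases before each start were examined because PRC2 in mammals is drawn to unmethylated CpG-rich starts. Shown are the 4 called members whose RefSeq start is also the start of the gene in the deposited table, an exchange factor, a pair of GAPs that moved in opposite directions and the RSK gene that fell most. They are SOS2 (chr14:50231579-50231828, minus strand), RASA3 (chr13:114132624-114132873, minus), RASAL3 (chr19:15464545-15464794, minus) and RPS6KA1 (chr1:26529511-26529760, plus). Each is printed 5′ to 3′ on the strand of its gene and ends at the base before the start, with CG dinucleotides in capitals.
SOS2: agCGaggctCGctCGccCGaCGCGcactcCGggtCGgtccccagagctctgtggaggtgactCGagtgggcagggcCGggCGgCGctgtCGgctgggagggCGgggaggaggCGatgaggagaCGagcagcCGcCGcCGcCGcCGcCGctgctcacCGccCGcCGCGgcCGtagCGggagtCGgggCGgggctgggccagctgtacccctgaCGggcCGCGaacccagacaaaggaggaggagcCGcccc
RASA3: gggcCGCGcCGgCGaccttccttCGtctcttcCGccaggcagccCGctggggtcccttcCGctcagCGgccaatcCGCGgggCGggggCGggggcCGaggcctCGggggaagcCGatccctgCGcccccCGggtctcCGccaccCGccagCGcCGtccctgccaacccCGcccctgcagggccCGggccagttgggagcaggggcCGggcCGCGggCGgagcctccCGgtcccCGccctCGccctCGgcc
RASAL3: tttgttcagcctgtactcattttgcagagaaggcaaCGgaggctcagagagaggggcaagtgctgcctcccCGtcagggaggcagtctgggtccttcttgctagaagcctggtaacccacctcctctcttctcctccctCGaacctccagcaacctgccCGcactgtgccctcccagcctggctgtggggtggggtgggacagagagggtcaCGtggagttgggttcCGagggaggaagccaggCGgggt
RPS6KA1: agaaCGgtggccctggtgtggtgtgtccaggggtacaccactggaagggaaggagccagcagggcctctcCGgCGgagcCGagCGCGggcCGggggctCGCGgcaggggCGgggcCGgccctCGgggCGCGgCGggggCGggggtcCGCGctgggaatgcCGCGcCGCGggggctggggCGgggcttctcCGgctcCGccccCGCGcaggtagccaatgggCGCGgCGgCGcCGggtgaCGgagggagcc
SOS2, RASA3 and RPS6KA1 held 34, 32 and 33 CG dinucleotides, and RASAL3 held 7. Of these 4 genes SOS2 and RPS6KA1, with CpG-rich starts, and RASAL3 fell. RASA3, also with a CpG-rich start, rose, but its neighbours rose by almost as much (median 0.28). Relative to them RASA3 was at 0.05 (adjusted p = 0.349). Over the matched members the count of CG ranged from 10 to 32 (median 20.5) in the 6 that rose and from 7 to 51 (median 32.0) in 11 that fell. It ranged from 1 to 27 (median 18.0) in 9 that were not called. The median over 35114 promoters was 11, but these were not limited to genes tested here, so they are not a matched baseline. The largest count, 51, belonged to GAB2. For some of these members the RefSeq start lay away from the start in the deposited table, by 43926 bases for RPS6KA2, 1711 for HRAS and 1049 for RASA1. Their windows may not be the start used in these cells. The ETS motif CCGGAAGT, searched on both strands, occurred before the start of SHC1, 1 of 29 members, and in 3.42% of all promoters. The cyclic AMP response motif TGACGTCA, which reads the same on both strands, occurred before NF1, 1 of 29, and in 1.65% of all promoters. One form of the SRF serum response motif (CArG box), on either strand, was in 0 of 29 members and 0.0313% of all promoters, which says only that these letters are not in these windows.

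Adaptors link receptors to SOS. Of 5 adaptor genes 4 fell and GRB2 did not pass. GAB2 (ENSG00000033327; GRCh38 chromosome 11, 78215293 to 78418348, minus strand), a docking protein that binds the phosphatase encoded by PTPN11, was at 40.82, 38.24 and 39.17 CPM in control libraries 3, 4 and 5. It was at 20.17, 20.55 and 19.11 CPM in EZH2 libraries 1, 3 and 4. Every EZH2 shRNA library lay below every control library by a gap far wider than the spread within either group (log2 fold change -0.98, SE 0.06, adjusted p = 4.35e-10). Its neighbours on chromosome 11 had a median of -0.28, and with that removed GAB2 remained at -0.71 (adjusted p = 2.69e-08).

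GAB1 (chromosome 4), its paralog, was much scarcer. It was at 7.997, 8.518 and 7.235 CPM in the controls and 6.267, 5.654 and 5.723 CPM in the EZH2 shRNA libraries, again without overlap (-0.43, SE 0.10, adjusted p = 0.00149). Per length, the 2 GAB mRNAs together were listed at between 6.47 and 6.82 FPKM (reads scaled to gene length and library size) in the controls and between 3.36 and 3.57 FPKM in the EZH2 shRNA libraries. GAB2 made up between 87.0% and 89.0% of that sum in the controls and between 82.8% and 84.4% in the EZH2 shRNA libraries.

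SHC1 (chromosome 1), an adaptor that brings GRB2 to receptors, went from 58.42 ± 2.79 to 48.33 ± 1.70 CPM (mean ± SD, 3 libraries per group; log2 fold change -0.27, adjusted p = 0.000202). PTPN11 (chromosome 12), the phosphatase SHP2 that promotes RAS activation, went from 144.3 ± 2.59 to 122.6 ± 3.21 CPM (-0.23, adjusted p = 1e-04). For both genes the groups did not overlap. GRB2 (chromosome 17), the adaptor that carries SOS to the membrane, was at 183.5, 182.8 and 175.6 CPM in the controls and 183.1, 181.2 and 177.8 CPM in the EZH2 shRNA libraries, with overlap. The 95% interval of its log2 difference ran from -0.08 to 0.08. Its neighbours were higher, at a median of 0.19, and relative to them GRB2 was called lower (-0.19, adjusted p = 0.000546).

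Exchange factors split by family: SOS1 and SOS2 fell, RASGRP1 and RASGRP2 rose, and RASGRP3 and RASGRP4 did not pass. SOS1 and SOS2 are the exchange factors that GRB2 recruits to receptors. SOS1 (ENSG00000115904; chromosome 2, 38981396 to 39124345, minus strand) was at 40.90, 42.44 and 42.11 CPM in the controls and 28.84, 31.31 and 28.98 CPM in the EZH2 shRNA libraries. The groups stood well apart (-0.49, SE 0.05, adjusted p = 7.05e-07). The region of SOS1 was lower as a whole (median -0.21), and relative to it SOS1 was at -0.28 (adjusted p = 0.000312); with the median of chromosome 2 removed it was at -0.20 (adjusted p = 0.00455).

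SOS2 (ENSG00000100485; chromosome 14, 50117130 to 50231578, minus strand) was at 51.63, 50.67 and 52.37 CPM in the controls. It was at 37.52, 40.03 and 40.09 CPM in the EZH2 shRNA libraries, all below the lowest control (-0.39, SE 0.05, adjusted p = 3.08e-06). Unlike SOS1, it lies on a chromosome with a median near 0 (0.02). Together the SOS mRNAs went from between 11.84 and 12.04 FPKM to between 8.43 and 9.10 FPKM, and the share of SOS1 in that sum was between 37.3% and 38.6% in the controls and between 35.2% and 37.0% in the EZH2 shRNA libraries.

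RASGRP proteins respond to diacylglycerol and calcium, and RASGRP2 is known chiefly as an activator of the RAS relative RAP1 in platelets and leukocytes. RASGRP2 (ENSG00000068831; chromosome 11, 64726911 to 64745456, minus strand) was at 250.1, 246.2 and 251.0 CPM in the controls and 346.1, 360.1 and 344.3 CPM in the EZH2 shRNA libraries. The lowest EZH2 shRNA library was above every control library (0.49, SE 0.04, adjusted p = 2.63e-08). RASGRP2 rose although its neighbours on chromosome 11 had a median of -0.24, and relative to them it was at 0.73 (adjusted p = 2.63e-10). GAB2 and RASGRP2 thus moved in opposite directions on the same chromosome.

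Per length RASGRP2 outweighed every other exchange factor of the list. It made up between 77.1% and 77.4% of their summed FPKM in the controls and between 86.0% and 86.6% in the EZH2 shRNA libraries. The share of SOS2 went from between 13.9% and 14.1% to between 8.22% and 8.77%, and that of SOS1 from between 8.31% and 8.73% to between 4.74% and 4.93%. The ranges of the 2 groups did not overlap for these 3 shares, which are descriptions without a test.

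RASGRP1 (chromosome 15), the exchange factor best known from T cells, was at 0.278, 0.211 and 0.165 CPM in the controls and 0.663, 0.504 and 0.919 CPM in the EZH2 shRNA libraries. These were 7 to 11 reads in each control library and 27 to 78 in the others, so the rise was from a very low level (1.70, SE 0.36, adjusted p = 0.00088). RASGRP3 (chromosome 2), which acts in B cells, was between 0.278 and 0.448 CPM in the controls and between 0.422 and 0.671 CPM in the EZH2 shRNA libraries (95% interval of the log2 difference -0.08 to 1.36, adjusted p = 0.14). With the median of its neighbours removed, RASGRP3 was called higher (0.94, adjusted p = 0.0337). RASGRP4 (chromosome 19), a myeloid and mast cell exchange factor, was between 0.230 and 0.456 CPM in the controls and between 0.392 and 0.483 CPM in the EZH2 shRNA libraries, and the interval ran from -0.29 to 1.18.

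**Figure D2:**
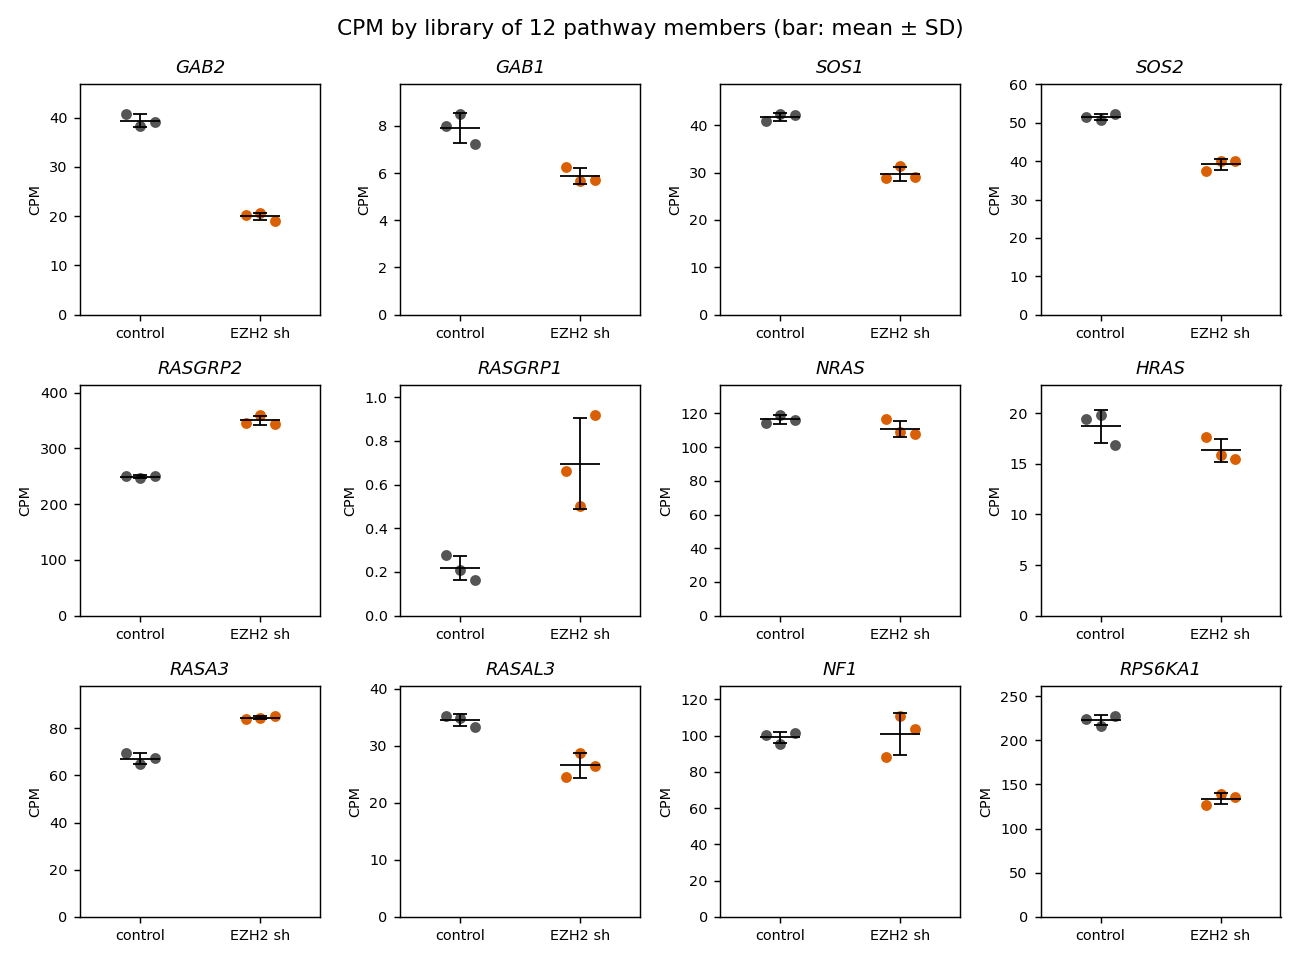
CPM (vertical axes, each from 0) of 12 members in the 3 control and 3 EZH2 shRNA libraries. Points are libraries, the long bar is the mean and the capped line the SD. GAB2, SOS1, SOS2 and RPS6KA1 are lower in every EZH2 shRNA library and RASGRP2 is higher, while the points of NRAS, HRAS and NF1 overlap between groups.

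Of 3 tested RAS genes HRAS fell, and NRAS and RRAS did not pass. NRAS (chromosome 1), one of the classical RAS genes, was at 114.2, 119.1 and 115.9 CPM in the controls and 116.4, 108.8 and 107.7 CPM in the EZH2 shRNA libraries. The groups overlapped through EZH2 library 1, and the log2 difference had a 95% interval from -0.16 to 0.02 (adjusted p = 0.195). Without EZH2 library 1 NRAS passed, at -0.11 (adjusted p = 0.0211). HRAS (chromosome 11) was at 19.44, 19.82 and 16.80 CPM in the controls and 17.64, 15.90 and 15.50 CPM in the EZH2 shRNA libraries, with overlap. It passed narrowly (-0.20, SE 0.08, adjusted p = 0.0449). With the median of its neighbours (-0.21) removed, HRAS was at 0.01 (adjusted p = 0.903), and without EZH2 library 4, EZH2 library 3, control 3 or control 4 the adjusted p was 0.182, 0.055, 0.158 and 0.188.

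RRAS (chromosome 19), a relative with roles in adhesion, was between 0.589 and 0.936 CPM in the controls and between 0.896 and 1.41 CPM in the EZH2 shRNA libraries (0.59, interval 0.06 to 1.13, adjusted p = 0.0627). Without EZH2 library 3 RRAS passed, at 0.72 (adjusted p = 0.0229). RRAS2 had 1 read in the controls and 4 in the EZH2 shRNA libraries, and no comparison is made of them. MRAS, which binds SHOC2 to activate RAF, had 0 reads in every library, which allows up to between 0.0353 and 0.0759 CPM per library. Among these 5 genes NRAS made up between 70.2% and 73.9% of the summed FPKM in the controls and between 72.2% and 73.1% in the EZH2 shRNA libraries.

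GAPs, which end the RAS signal, went both ways, with 2 higher, 2 lower and 2 not past the test among 6 tested. RASA3 (ENSG00000185989; chromosome 13, 113977783 to 114132623, minus strand), a GAP for RAS and RAP1 found in blood cells, was at 69.40, 64.69 and 67.33 CPM in the controls. It was at 84.02, 84.20 and 85.19 CPM in the EZH2 shRNA libraries, all above the highest control (0.33, SE 0.04, adjusted p = 5.33e-06). Its neighbours rose by almost as much (median 0.28), and relative to them RASA3 was at 0.05 (adjusted p = 0.349). DAB2IP (chromosome 9), a GAP that also binds other signalling proteins, was at 25.41, 24.73 and 25.15 CPM in the controls and 28.58, 30.44 and 32.06 CPM in the EZH2 shRNA libraries (0.28, SE 0.06, adjusted p = 0.000741). Its neighbours were near 0 (median -0.03).

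RASAL3 (chromosome 19), a GAP of lymphoid and myeloid cells, was at 35.18, 34.90 and 33.23 CPM in the controls and 24.43, 28.78 and 26.44 CPM in the EZH2 shRNA libraries. It was lower in every one of them (-0.38, SE 0.06, adjusted p = 8.75e-05), in a region with a median of 0.04. RASA2 (chromosome 3) was between 24.32 and 27.43 CPM in the controls and between 20.51 and 21.72 CPM in the EZH2 shRNA libraries (-0.28, adjusted p = 0.00113). RASA1 (chromosome 5), a GAP recruited to growth factor receptors, did not pass, with an interval from -0.23 to 0.06.

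NF1 (chromosome 17), the neurofibromin gene, had almost equal means, 99.09 ± 3.05 and 100.8 ± 11.6 CPM, but the EZH2 shRNA libraries differed from one another. They were at 88.06, 110.8 and 103.5 CPM for libraries 1, 3 and 4, against 100.1, 95.66 and 101.5 CPM in the controls. Library 1 lay below all controls and libraries 3 and 4 above them, and the interval of the log2 difference ran from -0.14 to 0.19 (adjusted p = 0.809). Summed over the 7 GAPs, FPKM was between 36.2 and 38.0 in the controls and between 37.5 and 39.3 in the EZH2 shRNA libraries. Within that sum the share of RASA3 went from between 37.0% and 38.4% to between 44.7% and 46.5%, and that of RASAL3 from between 18.7% and 20.7% to between 13.9% and 15.7%. The values imply that NF1 was divided by a length of 27130 bases and RASA3 by 4775 bases. The shares therefore rest on the annotated lengths, and in CPM NF1 was above RASA3.

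RASAL1, a calcium-responsive GAP on chromosome 12, was below the filter and was not tested. It had 1, 0 and 0 reads in control libraries 3, 4 and 5 and 11, 16 and 6 reads in EZH2 libraries 1, 3 and 4. The ratio of the summed counts, corrected for depth, was 23.5 with an exact 95% counting interval of 3.93 to 956, which covers counting error only. When no filter was applied, RASAL1 was called higher (adjusted p = 0.000551).

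**Figure D3:**
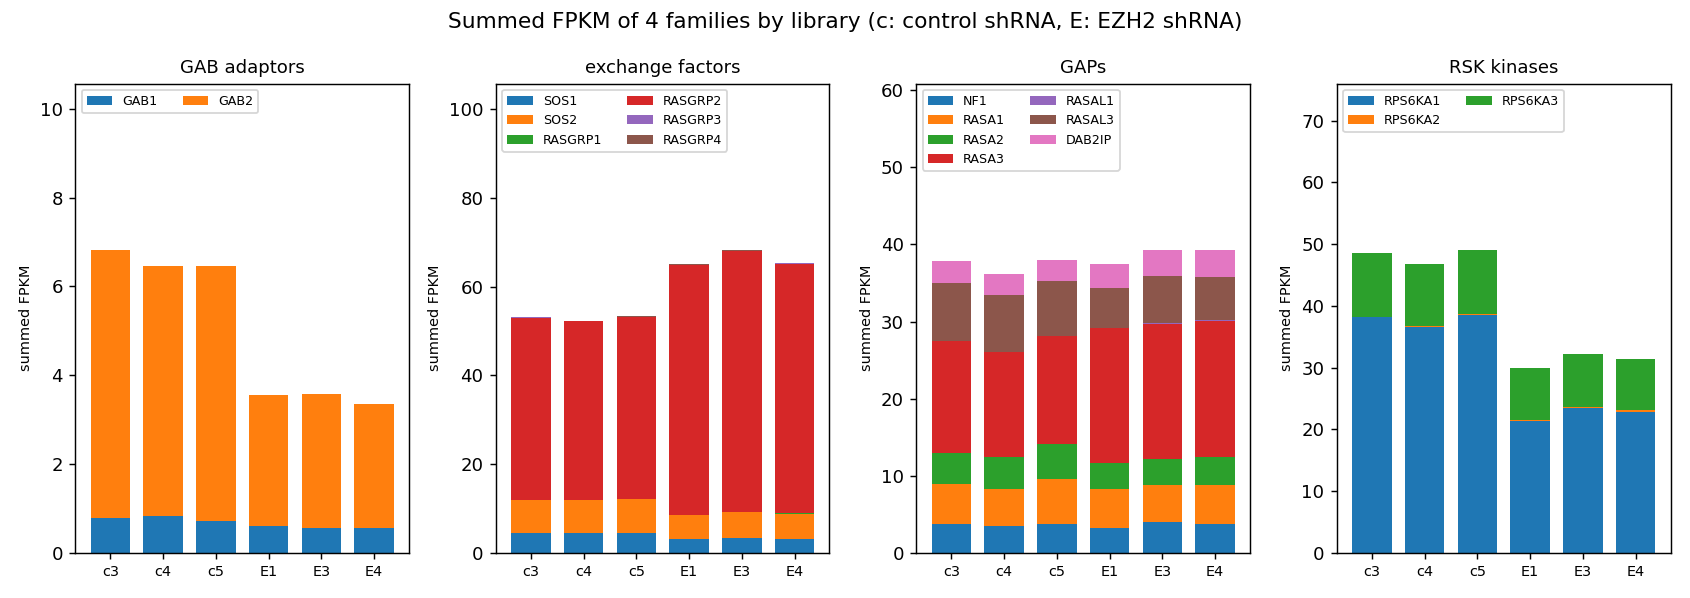
Summed FPKM (vertical axes) of the GAB adaptors, exchange factors, GAPs and RSK kinases in each library, with colours for the genes. Libraries c3 to c5 are control shRNA and E1, E3 and E4 EZH2 shRNA; the GAB and RSK sums are lower and the exchange factor sum higher in every EZH2 shRNA library, while the GAP sums overlap.

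Of the RAF and MEK kinases only MAP2K2 passed the test. ARAF (chromosome X) was at 86.86, 81.13 and 87.83 CPM in the controls and 90.07, 85.97 and 86.91 CPM in the EZH2 shRNA libraries, and the groups overlapped. BRAF (chromosome 7) was at 42.47 ± 1.46 and 40.31 ± 1.45 CPM. Their 95% intervals on the log2 scale were -0.05 to 0.13 and -0.18 to 0.03. Relative to its neighbours, whose median was 0.15, BRAF was called lower (-0.22, adjusted p = 0.00155). Per length ARAF was listed at 24.1 FPKM and BRAF at 1.81 FPKM in the controls. The values imply that BRAF was divided by a length of 23432 bases and ARAF by 3535 bases, so this ratio rests on the annotated lengths.

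MAP2K1 (chromosome 15), encoding MEK1, was at 40.80, 41.19 and 40.18 CPM in the controls and 39.29, 41.99 and 41.38 CPM in the EZH2 shRNA libraries (interval -0.09 to 0.11, adjusted p = 0.93). MAP2K2 (chromosome 19), encoding MEK2, was at 107.4, 109.8 and 107.0 CPM in the controls and 116.9, 121.7 and 116.0 CPM in the EZH2 shRNA libraries. The groups did not overlap, but the difference was small (0.13, SE 0.04, adjusted p = 0.0125). The genes around MAP2K2 had a median of 0.14, and relative to them MAP2K2 was at -0.02 (adjusted p = 0.783). Its call also ended without control 3, control 5 or EZH2 library 3 (adjusted p = 0.0566, 0.0539 and 0.0773).

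MAPK3 (ENSG00000102882; chromosome 16, 30114105 to 30123506, minus strand) encodes ERK1, which MEK activates. It was at 28.73, 26.84 and 28.54 CPM in the controls and 22.56, 23.72 and 22.65 CPM in the EZH2 shRNA libraries. All 3 EZH2 shRNA libraries were below all 3 controls (-0.29, SE 0.06, adjusted p = 0.000493), among neighbours with a median of 0.01.

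Both detected scaffold genes fell by small amounts. SHOC2 (chromosome 10), which helps to release RAF from its inhibited state, was at 43.86, 45.85 and 45.91 CPM in the controls and 41.28, 37.40 and 39.37 CPM in the EZH2 shRNA libraries, without overlap (-0.20, SE 0.05, adjusted p = 0.00337). Its neighbours had a median of -0.15, and relative to them SHOC2 was at -0.05 (adjusted p = 0.466). KSR1 (chromosome 17), which holds RAF, MEK and ERK together, was at 12.98, 12.57 and 12.25 CPM in the controls and 10.93, 11.70 and 10.03 CPM in the EZH2 shRNA libraries (-0.21, SE 0.08, adjusted p = 0.0356). The call of KSR1 ended without control 3, 4 or 5 (adjusted p = 0.119, 0.0785 and 0.0555) or without EZH2 library 4 (0.183), whereas relative to its higher region (median 0.14) KSR1 was at -0.35 (adjusted p = 0.00174). KSR2 had 0 reads in every library, with the same limit as MRAS.

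RSK kinases act below ERK on transcription and translation. RPS6KA1 (ENSG00000117676; chromosome 1, 26529761 to 26575030, plus strand), encoding RSK1, was at 224.5, 216.1 and 227.4 CPM in the controls and 126.8, 138.7 and 135.7 CPM in the EZH2 shRNA libraries. No EZH2 shRNA library came near a control library (-0.73, SE 0.04, adjusted p = 6.68e-10). The region around RPS6KA1 had a median of -0.05, and relative to it the gene was at -0.69 (adjusted p = 1.82e-09). RPS6KA3 (chromosome X), encoding RSK2, was at 102.4, 100.1 and 103.6 CPM in the controls and 83.34, 85.06 and 82.78 CPM in the EZH2 shRNA libraries (-0.29, SE 0.04, adjusted p = 1.35e-05).

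RPS6KA2 (chromosome 6), encoding RSK3, was low but higher in every EZH2 shRNA library. It was at 0.759, 1.11 and 0.990 CPM in the controls and 1.69, 1.87 and 1.44 CPM in the others (0.78, SE 0.21, adjusted p = 0.00534). The 3 RSK mRNAs summed to between 46.8 and 49.0 FPKM in the controls and between 29.9 and 32.2 FPKM in the EZH2 shRNA libraries. RPS6KA1 made up between 78.2% and 78.6% of that sum in the controls and between 71.5% and 73.0% in the EZH2 shRNA libraries, and RPS6KA2 stayed under 1% in all.

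The calls were also read by chromosome. Of 5 tested members on chromosomes 2 and 11, whose genes were lower as a whole, SOS1, GAB2 and HRAS fell, RASGRP2 rose and RASGRP3 did not pass. Of all tested genes on these 2 chromosomes 9.86% were called higher and 49.1% lower. Of 21 tested members outside chromosomes 2, 11, 13 and 17, 4 rose and 10 fell, where 24.1% of all genes outside those chromosomes were called higher and 20.4% lower. With chromosome medians removed 20 members were called, where 44.3% of all genes were. With the median of the neighbours removed from every gene, 5 members were called higher and 14 lower, where 44.6% of all genes were called, 23.7% higher and 20.8% lower. GRB2 and BRAF joined the lower group and RASGRP3 the higher one, while HRAS, SHOC2, RASA3 and MAP2K2 lost their calls.

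**Figure D4:**
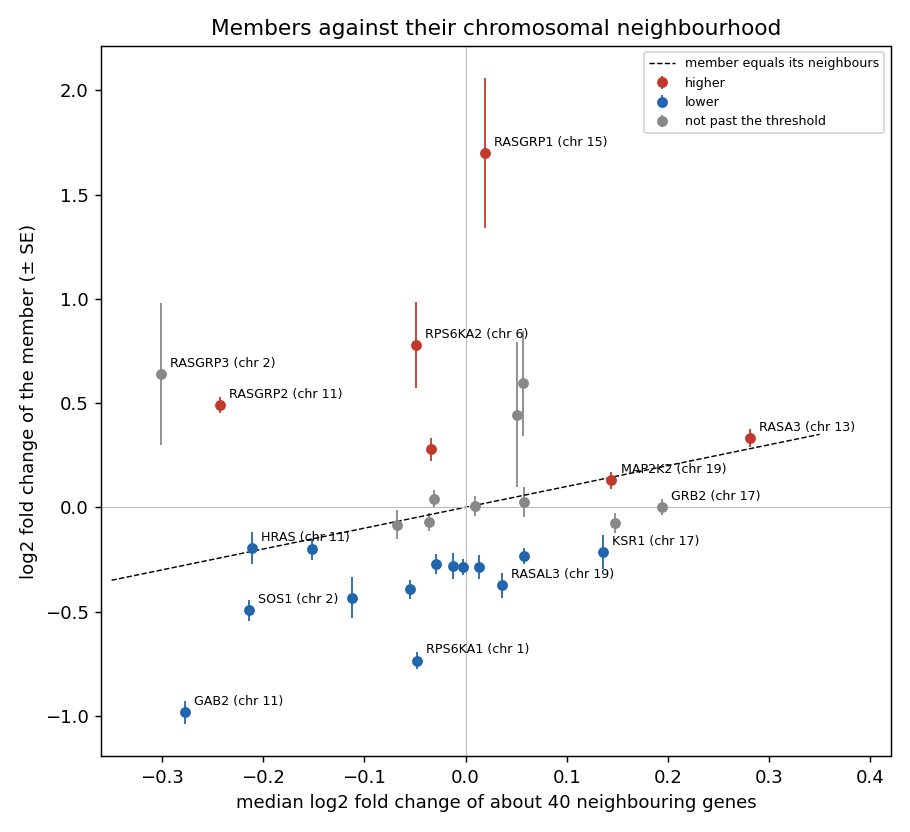
Log2 fold change of each tested member (vertical axis, bars are SE) against the median log2 fold change of about 40 neighbouring genes (horizontal axis), with red for higher, blue for lower and grey for not past the threshold. On the dashed line a member equals its neighbours; HRAS, RASA3 and MAP2K2 lie close to it, GAB2, SOS1 and RPS6KA1 below it, and RASGRP2 and RASGRP1 above it.

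Other genes around the same pathway were read from 6 further lists of 80 genes, of which 71 passed the filter. In all 21 were higher, 19 lower and 31 not past the threshold, with a median log2 fold change of 0.01. Over all genes tested 23.8% were called higher and 22.9% lower, the share against which these counts and those of each list are to be read. Among 19 other adaptors and docking proteins 6 were higher and 6 lower. SHC3, an SHC paralog, rose from 3.61 to 8.76 CPM (1.27, adjusted p = 1.52e-07), and INPP5D, the phosphatase SHIP1 on chromosome 2, fell from 184.7 to 114.5 CPM (-0.69, adjusted p = 4.06e-10). Of 10 other regulators of the RAS switch and RAS relatives 2 were higher and 5 lower. RASGRF1, a calcium-dependent exchange factor, fell from 17.25 to 6.41 CPM (-1.43, adjusted p = 3.85e-10), the same direction as SOS1 and SOS2. LZTR1, which directs RAS proteins to degradation, rose from 20.60 to 26.74 CPM (0.38, adjusted p = 3.85e-05).

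Of 9 enzymes and carriers that modify RAS proteins after translation or traffic them 2 were higher and 7 did not pass the threshold. ZDHHC9, a palmitoyltransferase, was at 21.89 and 25.82 CPM (0.24, adjusted p = 0.00231). Of 9 tested genes for other RAS effectors 3 were higher and 2 lower. RALGDS, which couples RAS to RAL, rose from 11.23 to 19.08 CPM (0.76, adjusted p = 4.91e-07), and PIK3CG, the gamma catalytic subunit of PI3 kinase, fell from 58.03 to 27.21 CPM (-1.09, adjusted p = 6.67e-11). Of 15 modulators of the cascade 6 were higher and 3 lower, led by PAQR3, which holds RAF at the Golgi (0.29, adjusted p = 0.000289), and PPP1CB, the phosphatase subunit that joins SHOC2, on chromosome 2 (-0.49, adjusted p = 4.78e-07). Of 9 tested ERK or p38 substrate kinases and transcription factors 2 were higher and 3 lower. RPS6KA5, a nuclear kinase related to RSK, rose from 22.90 to 34.91 CPM (0.61, adjusted p = 1.77e-07), and the ETS factor ELK3 fell from 26.24 to 11.02 CPM (-1.25, adjusted p = 2.26e-10).

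The spans of 11 members overlap, in part or in full, a gene on the other strand with at least 1% of the member's reads. The library kit keeps the strand, but whether counting used it is not given in the sources used here. For 5 of these the other gene had more reads than the member: GAB1, PTPN11 (overlapped by RPL6), RASGRP4, RASA1 and BRAF. NF1 is overlapped by EVI2A and EVI2B, which fell by 0.78 and 0.74 on the log2 scale. RASGRP1 is overlapped by an antisense RNA with 59 reads in all. On its own strand RPS6KA2, with 436 reads in all, is overlapped by RAMACL (3277 reads), which fell by 0.29. The pseudogene AL023775.1 (1500 reads) also overlaps it there. SHC1, with 16954 reads, is overlapped on its own strand by PYGO2 (23940 reads, log2 fold change -0.003). The part of all these overlaps in the values was not tested.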

How the data were processed

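RNA was sequenced from 6 HL-60 libraries. The authors deposited raw counts per gene and, in a second table, FPKM values, both without pooling. The build GRCh38 and the tools DESeq2 1.24.0, STAR 2.5.2b, R 3.6.1 and Picard 2.18.24 appear, without roles, per the submitters' processing notes. For the counter, the annotation release and the strand option, the entry is: not given in the sources used here. The FPKM table implied whole gene lengths (tolerance 0.001) for 29060 of 29060 genes with reads, so it rescales the same counts.

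Computed here were CPM with TMM factors and edgeR 4.0.16 quasi-likelihood tests (R 4.3.3, filterByExpr, robust, group as the only term, 16859 genes, adjusted p under 0.05). SE and intervals follow from the F statistic. Chromosome and neighbour medians used genes over 2 log2 CPM, 20 on each side, and were removed through the offset. Floors are 3 counts, and counting intervals cover counting error only. Libraries of 1 group differed beyond sampling noise (chi-square per degree of freedom 3.18 to 17.6). The scripts were tested on simulated counts. Alternatives were scaling, filters, DESeq2 1.42.0, limma 3.58.1 on log2 FPKM, left-out libraries, a block and regional medians. Members and lists were chosen with earlier results of these data known. All members are named, those called with a size of at least 0.4 and the abundant member of each tier by library; of each further list, the gene with the smallest p in each direction is named.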

Additional observations from a re-analysis of the deposited data

How the results depend on the processing

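Under 16 alternatives the count of called members stayed between 18 and 22 (20 as reported), and leaving out single libraries gave 18 to 21. The number of members tested ranged from 26 to 32 between these settings, so the counts do not cover the same genes. RASAL1, below the filter of the main fit, is among those called without control 3, 4 or 5, without EZH2 library 4, and without a filter. Of 20 called members 15 kept their call and direction throughout, where they could be tested, and of 10 uncalled members 4 had no call in any alternative. With chromosome or neighbour medians removed, HRAS turned to 0.0717 and 0.0141, GRB2, at 0.00, turned to -0.150 and -0.194, and MAP2K2 was at 0.0548 and -0.0155. HRAS also lost its call with a filter of 1 CPM in 3 libraries (adjusted p = 0.0507) and on log2 of FPKM + 1 or FPKM + 0.1 (0.0843 and 0.0814), as did KSR1 on both FPKM scales (0.112 and 0.124); these causes were not tested. The title numbers 3 and 4 occur in both groups but are not said to pair libraries. Deviations from the group means correlated at 0.06 for each such pair, and between -0.05 and 0.03 for the other pairs of a control and an EZH2 library. Numbers 1 and 5 each occur in only 1 group, so a replicate block by number takes the group difference from libraries 3 and 4 alone. EZH2 library 1 and control 5 then add nothing to it. In that edgeR fit 22 members were called, NRAS at -0.11 and NF1 at 0.13 being added (adjusted p = 0.0473 and 0.0167). Low members are limited by depth: 3 reads equal 0.0353 to 0.0759 CPM.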
